A study of Homo sapiens with 2 samples.

Results

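The signals of 9 miRNAs enriched in neurons or neuroendocrine cells were examined in MKN1, an established human gastric cancer cell line, under normoxia (20% O2) and hypoxia (1% O2). The 9 miRNAs were chosen by name for where they are known to be enriched, when earlier results of these data were already known. They were hsa-miR-7, hsa-miR-9, hsa-miR-124, both arms of miR-129 (hsa-miR-129-3p and hsa-miR-129-5p), hsa-miR-132, hsa-miR-137, hsa-miR-138 and hsa-miR-218, written below without the prefix for human. Each was found as 1 of the 1329 probes of the array, of which 879 are for mature miRNAs and 450 for precursors. Cells of the same line were kept for 24 h under either condition, with no other treatment and no genetic change named in the labels, and their biotin-labelled total RNA was read on a GenoSensor human array. There was 1 array per condition, so no test between conditions was possible, no value has a replicate error, and every difference below describes these 2 arrays. The labels do not say whether an array held RNA of 1 culture or of several. The signals are those normalized by the authors, on a linear scale, with 20 as the lowest listed signal and 0 for all others, and a fold change (hypoxia over normoxia) is given only for probes listed above 0 on both arrays. Since a whole culture was measured, a miRNA at a lower level in every cell and one lost from some cells cannot be told apart.

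A miRNA is cut from a hairpin precursor, and either arm of the hairpin can be loaded into an Argonaute protein, which it guides to mRNAs that pair with its seed, bases 2 to 8. The arm named with a star is the one that was thought to be the rarer product. miR-124 and miR-9 promote the neuronal fate and are among the best known miRNAs of the brain, miR-7 is found in neuroendocrine cells and pancreatic islets and binds the circular RNA CDR1as, and miR-132 is induced by neuronal activity through CREB. miR-137 and miR-138 act in neural differentiation and at dendritic spines, miR-218 is enriched in motor neurons, and miR-129 is abundant in the brain. None of them is restricted to neurons.

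The mature sequences of 8 of the 9 miRNAs were matched by name in RefSeq (GRCh38.p14) and are shown because the seed, in capitals, decides which mRNAs a miRNA pairs with. The name miR-129-3p of the array corresponds to miR-129-2-3p in RefSeq, the other names to miR-7-5p, miR-9-5p, miR-129-5p, miR-132-3p, miR-137-3p, miR-138-5p and miR-218-5p.
miR-7: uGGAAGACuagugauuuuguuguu
miR-9: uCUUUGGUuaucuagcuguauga
miR-129-3p: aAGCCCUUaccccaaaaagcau
miR-129-5p: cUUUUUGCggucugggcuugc
miR-132: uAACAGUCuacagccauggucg
miR-137: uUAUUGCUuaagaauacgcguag
miR-138: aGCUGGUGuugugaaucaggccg
miR-218: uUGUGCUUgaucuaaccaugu
The 8 sequences carried 8 different seeds, were 21 to 24 bases long and had a G and C content between 33.3% and 57.1%, so the list is a group by tissue and not a seed family. Only miR-132 shared its seed with a miRNA of another name in RefSeq, miR-212, while the seed of miR-129-3p was also that of miR-129-1-3p, the same arm of the other miR-129 gene. The probes themselves are known here by name only, and the match to these sequences rests on the names.

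miR-129-3p and miR-218 were the neuronal miRNAs with higher signals under hypoxia by over 2-fold. The signal of miR-129-3p was 29 on the normoxia array and 118 on the hypoxia array, a 4.07-fold difference. miR-218 had 150 and 513, a 3.42-fold difference. Both were over 2-fold higher under each of 9 other processings that gave them a value. Among these 9, the other deposited table and the replacement of unlisted signals by the lowest listed signal could not change either value. Under the rest, the log2 fold changes were between 1.09 and 2.22 for miR-129-3p and between 1.49 and 1.97 for miR-218. The lowest values of both came with 50 added to each signal. Of the 510 mature probes with a signal on both arrays, 9.02% were over 2-fold higher and 2.35% over 2-fold lower, against 2 and 0 of the 7 neuronal miRNAs with a signal on both arrays. Over 3-fold higher were 1.76% of the mature probes, and both of these miRNAs were among them. With 7 miRNAs on 2 arrays, these counts do not set the list apart from the other probes.

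miR-7, miR-9, miR-129-5p and miR-138 had lower signals under hypoxia, each by less than 2-fold. miR-7 was at 1152 on the normoxia array and 856 on the hypoxia array (log2 fold change -0.43), and miR-9 was at 952 and 665 (-0.52). The signals of miR-129-5p were 8417 and 6030 (-0.48), and those of miR-138 were 225 and 181 (-0.32). miR-7, miR-9 and miR-138 were lower under every processing tried that kept them. Their log2 fold changes nearest to 0 came with total signal scaling, at -0.23, -0.32 and -0.12. By contrast miR-129-5p, lower in the other settings, had a log2 fold change of 0 after quantile normalization. It was at -0.16 once the trend with signal was taken out. miR-132 had nearly equal signals of 76.3 and 82, a log2 fold change of 0.10 whose sign turned after median centring (-0.033), under quantile normalization (-0.30) and without the trend (-0.26). As deposited, 3 of the 7 neuronal miRNAs were higher, beside 53.5% of the mature probes, and their median log2 fold change was -0.32 beside 0.076 for all 510.

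miR-124 and miR-137 gave no fold change. miR-124 was listed at 0 on the normoxia array and at 31.3 on the hypoxia array, and miR-137 was listed at 0 on both arrays. Neither carries the authors' detection mark, which all 663 probes with a signal on both arrays carry. The mark is also on 4 probes listed at 0 on both arrays and on 0 of the 174 with a signal under hypoxia only. A signal under hypoxia only was found for 9.78% of the 879 mature probes and 0 on both arrays for 32.1%, beside 1 of the 9 neuronal miRNAs each. The signal of miR-124 was close to the median of 30 of the 86 mature probes seen under hypoxia only, and the sources used here do not say what a listed 0 stands for.

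**Figure D1:**
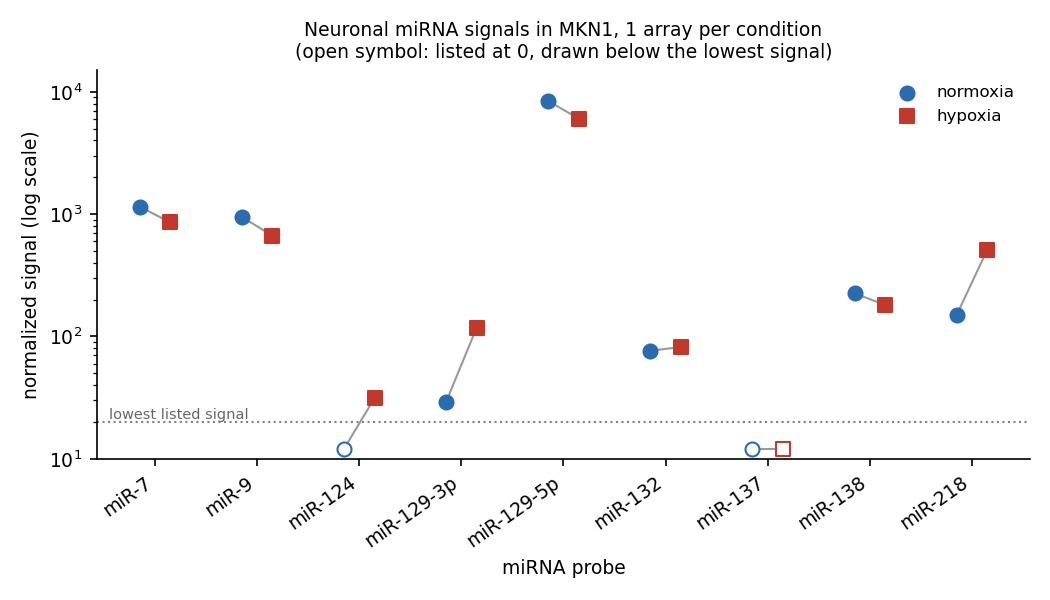
Normalized signal, on a log axis, of the 9 neuronal miRNA probes on the normoxia array (circles) and the hypoxia array (squares), with a line joining the 2 values of a probe and open symbols for signals listed at 0. miR-129-3p and miR-218 are over 2-fold higher under hypoxia, and miR-7, miR-9, miR-129-5p and miR-138 are lower by less than 2-fold, with miR-129-5p at no difference after quantile normalization.

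Signal and fold change were related on these arrays, which bears on the dim members. For the 121 mature probes with a mean log2 signal of the arrays under 7 the median log2 fold change was 0.38, and 18.2% were over 2-fold higher. For the 231 probes from 7 to 10 the median was 0.16 with 8.23% over 2-fold higher, and for the 158 probes above 10 it was -0.15 with 3.16%. The mean log2 signal of miR-129-3p was 5.87, in the dimmest class, and that of miR-218 was 8.12. After removal of this trend by a lowess curve, the log2 fold change was 1.66 for miR-129-3p and 1.57 for miR-218. The difference in signal itself was 89 for miR-129-3p and 363 for miR-218, and 5.79% of the dimmest class but 0.866% of the middle class were over 3-fold higher. The part of the trend in these values was otherwise not tested. Likewise miR-7 (-0.44), miR-9 (-0.55) and miR-138 (-0.57) lay below the curve, miR-129-5p nearer to it (-0.16). The 3 mature probes with log2 fold changes nearest to the 2.02 of miR-129-3p over the 2 arrays were miR-935 (1.99), miR-515-3p (1.98) and miR-521 (2.09), with normoxia signals of 20.7, 41 and 21.7.

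**Figure D2:**
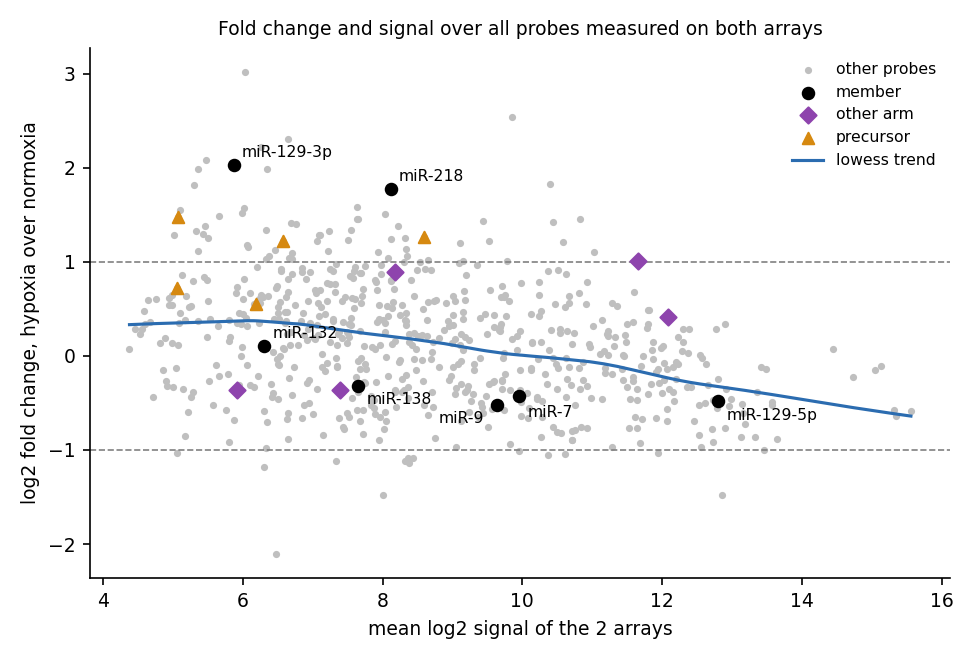
Log2 fold change of hypoxia over normoxia against the mean log2 signal of the 2 arrays for all 663 probes with a signal on both (grey), with the neuronal miRNAs (black circles, named), their other arms (diamonds) and their precursors (triangles), the lowess trend (line) and the 2-fold limits (dashed). miR-129-3p lies among dim probes and miR-218 at a middle signal, both well above the trend, while miR-129-5p lies near the trend among bright probes.

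In RefSeq (GRCh38.p14) the 9 miRNAs come from 17 genes, several of them copies that yield the same mature arm. MIR7-1 lies within HNRNPK on chromosome 9, MIR7-2 within AEN on chromosome 15 and MIR7-3 within the noncoding RNA gene MIR7-3HG on chromosome 19. MIR9-1, MIR9-2 and MIR9-3 each lie within a noncoding host gene, on chromosomes 1, 5 and 15. MIR218-1 and MIR218-2 lie within SLIT2 on chromosome 4 and SLIT3 on chromosome 5, genes for secreted guidance proteins of axons. MIR129-2 lies within HSD17B12 on chromosome 11. No build is named for the array, so no coordinates are given. Apart from the 9 miRNAs, the array held 9 probes for other arms of these genes and 17 for precursors, and each probe of a gene is a separate reading on the same 2 RNA samples. Together the 35 probes gave 17 fold changes, 6 of them over 2-fold higher and none over 2-fold lower, beside 9.65% and 2.11% of all probes with a signal on both arrays. With pseudocounts of 16 and 50 the count over 2-fold higher fell to 4 and 3, beside 45 and 24 of all 663 probes. It was 5 after median centring, quantile normalization or trend removal, beside 47, 37 and 37 of the 663. Total signal scaling gave 7, beside 104 of the 663.

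The arms of miR-129 differed in opposite directions. miR-129-3p was 4.07-fold higher under hypoxia, whereas the 5p arm was 1.40-fold lower, so that their log2 fold changes lay 2.51 apart. A single scaling factor between the arrays leaves this distance as it is. It was the widest of the 113 pairs of arms with signals on both arrays, but the second widest after removal of the trend (1.81) or with 50 added to each signal (1.57), and the fourth widest after quantile normalization (1.66). The precursor of miR-129-1 was listed at 0 on both arrays, and that of miR-129-2 at 0 under normoxia and 23.3 under hypoxia. miR-129-2-3p and miR-129-1-3p differ at 1 of 22 bases, C20U counted from the 5′ end.
miR-129-2-3p: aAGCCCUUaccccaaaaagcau
miR-129-1-3p: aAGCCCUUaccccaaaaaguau
The sources used here do not say whether the probe named miR-129-3p tells them apart.

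The probes of the miR-7 genes also differed. miR-7-2* was at 2287 on the normoxia array and 4584 on the hypoxia array (2.004-fold higher, log2 fold change 1.00), while miR-7-1* had 68.3 and 53.3 (-0.36), beside -0.43 for miR-7 itself. miR-7-2* was at the edge of the 2-fold limit, over it after quantile normalization (1.07), removal of the trend (1.17), and 75th percentile (1.02) and total signal (1.20) scaling, and under it after median centring and with a pseudocount of 16 or 50. The log2 fold changes of miR-7 and miR-7-2* lay 1.43 apart, and those of miR-7 and miR-7-1* 0.070 apart as deposited, with miR-7-1* the higher. After quantile normalization and removal of the trend miR-7-1* was the lower of these, by 0.39 and 0.29. The starred sequences share the seed and differ at 4 of 22 bases, A10C, G17A, A20U and U21A from miR-7-1* to miR-7-2*, counted from the 5′ end, and are shown with the seed in capitals.
miR-7-1*: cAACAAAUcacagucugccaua
miR-7-2*: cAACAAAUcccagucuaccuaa
The precursors of miR-7-1 and miR-7-2 were listed at 0 on both arrays and that of miR-7-3 at 0 and 21. miR-1179, whose gene lies beside MIR7-2 within AEN and which was added after its values were seen, was listed at 0 on both arrays.

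Mature and precursor probes of miR-9 lay on opposite sides of 0. miR-9 was lower under hypoxia, and so was miR-9*, the arm from the other side of the hairpin, with 190 under normoxia and 147 under hypoxia (-0.36). The precursor of miR-9-1 was at 250 under normoxia but at 599 under hypoxia, 2.40-fold higher, and the miR-9-3 precursor was at 20.3 and 56.3, 2.77-fold higher from a level next to the lowest listed signal, and under 2-fold with a pseudocount of 16 or 50. The precursor of miR-9-2 was listed at 0 on both arrays. The log2 fold changes of the precursors of miR-9-1 and miR-9-3 exceeded that of miR-9 by 1.78 and 1.99, as deposited the seventh and the fourth widest of 122 pairs of a mature probe and a precursor probe on the array. With a pseudocount of 16 they ranked 6 and 8, whereas a pseudocount of 50 gave distances of 1.60 and 1.08 and ranks of 4 and 14. The sources used here do not say which stretch of a precursor a probe matches.

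The probes of miR-218 lay on the same side. The precursor of miR-218-1 was at 62.3 under normoxia but at 146 under hypoxia (2.34-fold higher), and the precursor of miR-218-2 had 60.3 and 88.3 (1.46-fold higher), both below the 3.42-fold of miR-218. The precursor of miR-218-1 was under 2-fold with quantile normalization, with 50 added to each signal and after removal of the trend (0.87 on the log2 scale), and that of miR-218-2 was then at 0.18. miR-218-1* and miR-218-2* were listed at 0 on both arrays.

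For miR-138 the arms again took opposite signs. miR-138-1* was at 3776 (normoxia) and 5022 (hypoxia), a log2 fold change of 0.41, and miR-138-2* at 213 and 394 (0.89, and 1.09 with total signal scaling), while miR-138, the arm that both genes share, was at -0.32. The distance to miR-138 was 0.73 for the first, which became 1.15 after quantile normalization and 1.21 without the trend, and 1.20 for the second. The starred arms differ at 4 of 22 bases, C5U, A11G, C21U and C22U from miR-138-1* to miR-138-2*, the first of them within the seed.
miR-138-1*: gCUACUUCacaacaccagggcc
miR-138-2*: gCUAUUUCacgacaccaggguu
The precursor of miR-138-1 was listed at 0 (normoxia) and 27 (hypoxia), and that of miR-138-2 at 0 on both.

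miR-132 and miR-212 are neighbours on chromosome 17 and are known to be cut from a common transcript. The signals of miR-212 were 3453 (normoxia) and 3203 (hypoxia), a log2 fold change of -0.11 beside 0.10 for miR-132, so that neither differed by more than 1.08-fold. The sign of miR-212 turned after removal of the trend (0.061), quantile normalization (0.057) and total signal scaling (0.090). miR-132* was listed at 0 under normoxia and 54.7 under hypoxia, and the precursors of both were listed at 0 on both arrays. miR-132 and miR-212 share the seed and differ at 4 of 21 bases, A10C, C14U, U17C and U20C from miR-132 to miR-212, and the sequence of miR-212 is shown beside it.
miR-132: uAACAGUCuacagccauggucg
miR-212: uAACAGUCuccagucacggcc
For miR-124, the starred arm and the precursors of miR-124-1 and miR-124-3 were listed at 0 on both arrays, while the precursor of miR-124-2 had 26 under normoxia and 43 under hypoxia (0.73 on the log2 scale). The precursor of miR-137 was listed at 0 and 31.

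**Figure D3:**
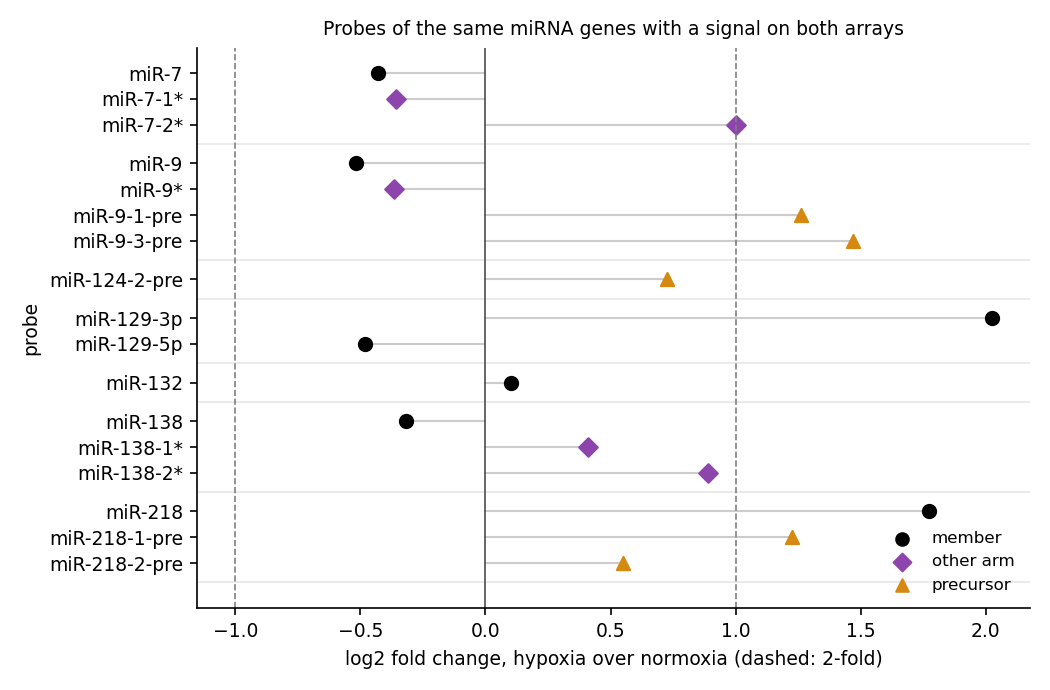
Log2 fold change of hypoxia over normoxia for the 17 probes of the same miRNA genes with a signal on both arrays, grouped by miRNA, with mature members as circles, other arms as diamonds and precursors as triangles, and the 2-fold limits dashed. The arms of miR-129 lie on opposite sides of 0 as deposited, the precursors of miR-9 lie above 1 while miR-9 and miR-9* lie below 0, and all probes of miR-218 lie above 0.

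Of the 6 pairs of arms of the neuronal miRNAs, 3 had log2 fold changes more than 1 apart, against 21.2% of all 113 pairs. With miR-138 and miR-138-1* this became 4 after quantile normalization (24.8% of all pairs) and without the trend (21.2%). Further, 4 of 6 had opposite signs as deposited, against 54 of 113. All 5 precursors with a signal on both arrays were higher under hypoxia, under every processing that kept them, against 65.4% of all precursor probes with a signal on both arrays, and 3 of them were over 2-fold higher (1 with a pseudocount of 50) and 0 over 2-fold lower, against 11.8% and 1.31%. A further 4 of the 17 precursors had a signal under hypoxia only, against 19.6% of all 450 precursor probes, and 8 were listed at 0 on both arrays, against 46.2%. Of the 4 pairs of a neuronal miRNA and its precursor, 3 had log2 fold changes over 1 apart, against 23.0% of 122. Pairs of 1 gene or of 1 mature arm share probes and are not independent, and the numbers are too small to set them apart from the rest of the array.

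**Figure D4:**
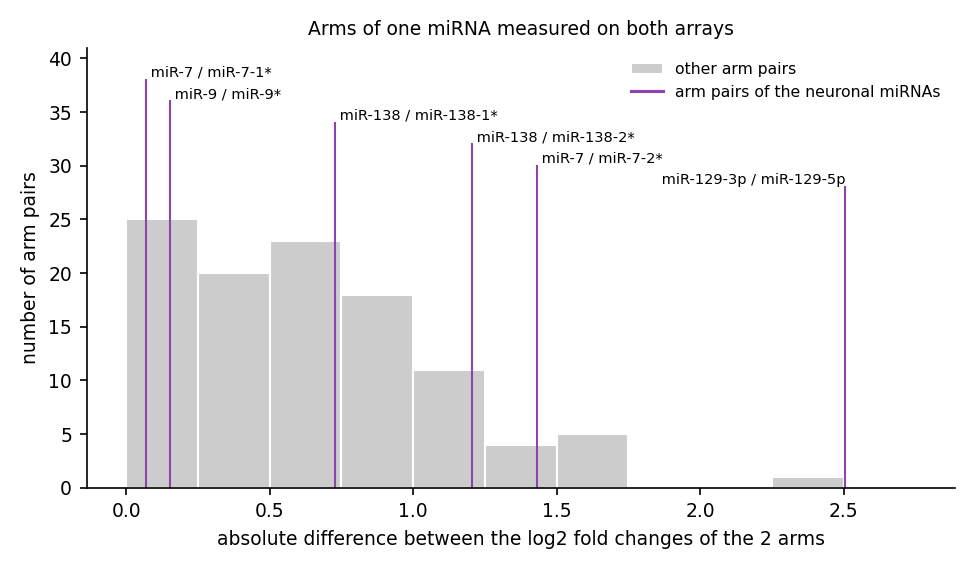
Number of pairs of arms (bars, 107 pairs of other miRNAs) by the absolute difference between the log2 fold changes of the arms, with the 6 pairs of the neuronal miRNAs as named lines. The arms of miR-129 lie 2.51 apart, those of miR-7 and miR-7-2* 1.43, and those of miR-9 and miR-9* 0.15.

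A list of 27 other miRNAs of neurons, glia and sensory cells was also on the array. Signals under both conditions were listed for 22 of them, and 0 of these were over 2-fold higher and 0 over 2-fold lower, beside 9.02% and 2.35% of the mature probes. As deposited, 10 were higher and 12 lower, beside 53.5% of the mature probes higher, and the median log2 fold change was -0.017 beside 0.076. The split was 14 and 8 after total signal scaling and 7 and 15 after quantile normalization. Of the 510 mature probes, 328 and 241 were higher in these settings, so the split moved with the whole array. The highest was miR-488, with 29.3 under normoxia and 45.7 under hypoxia (0.64), and the lowest miR-346, with 4149 and 2432 (-0.77). The brightest, miR-338-3p, was at 7978 and 5763 (-0.47). Listed at 0 under normoxia were miR-153, miR-184 and miR-375, a miRNA of islets and neuroendocrine cells, with hypoxia signals of 27, 51.7 and 70.7. miR-219-5p, of oligodendrocytes, and miR-219-1-3p were listed at 0 on both arrays, whereas miR-219-2-3p was at 4543 and 3805.

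Across the whole array, 663 probes had a signal on both arrays, 174 under hypoxia only, 2 under normoxia only and 490 on neither, with a median log2 fold change of 0.14 that became 0.33 after scaling on the total signal. miR-210, known to be induced by hypoxia, had a log2 fold change of 2.53. All 7 epithelial miRNAs listed had a signal on both arrays, summing to 2948 under normoxia and 2511 under hypoxia, and so did 3 of 4 gastrointestinal ones (794 and 606 in sum), with miR-375 at 0 under normoxia. Signals on both arrays were also listed for 4 of 4 miRNAs typical of muscle, which summed to 426 and 856. These were all higher under hypoxia as deposited (3 of 4 once the trend was removed or quantiles were matched). Only miR-206 of them was over 2-fold higher as deposited, with 155 under normoxia and 442 under hypoxia. Signals on both arrays were listed for 3 of 5 miRNAs typical of blood (1518 and 1027 in sum), and for 510 of all 879 mature probes. miR-126 of endothelium had 741 and 492. The part of such signals in the values of the neuronal miRNAs was not tested.

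Under the 9 alternatives that kept all 7 measured miRNAs, miR-129-3p and miR-218 stayed over 2-fold higher, and the other 5 stayed under 2-fold in both directions. Among these 9, the other deposited table and the replacement of unlisted signals by the lowest listed signal could not change the values of the 7 miRNAs.

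**Figure D5:**
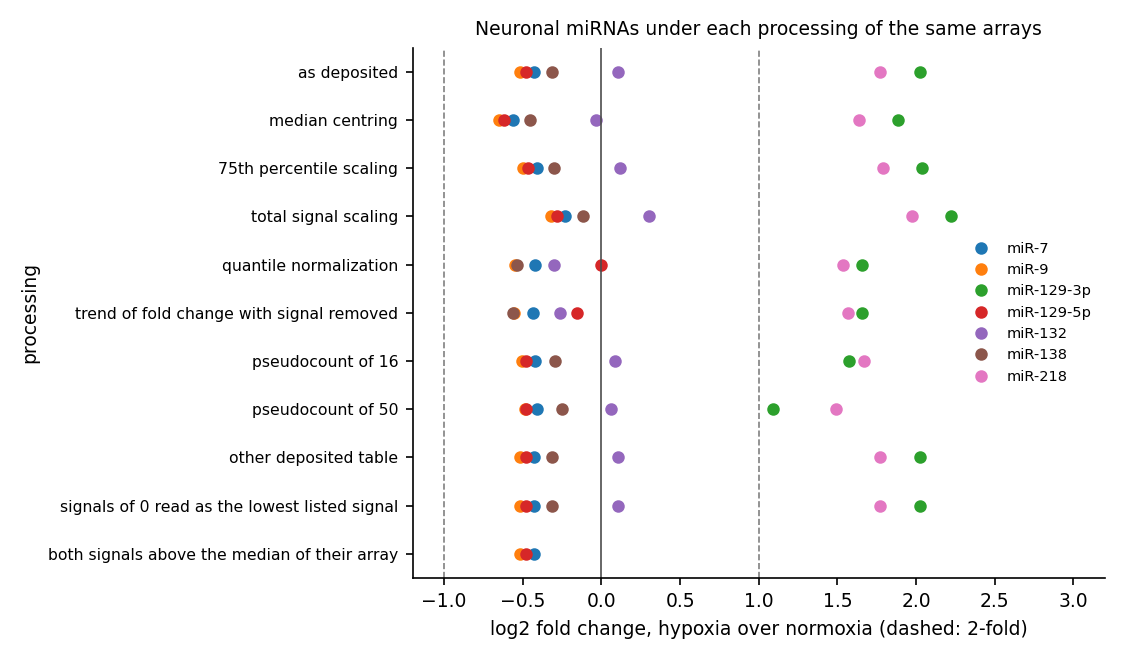
Log2 fold change of hypoxia over normoxia of the 7 neuronal miRNAs with a signal on both arrays, as deposited and under each alternative processing of the same arrays, with the 2-fold limits dashed. miR-129-3p and miR-218 lie above 1 wherever they are kept, miR-132 crosses 0 under quantile normalization, median centring and trend removal, and miR-129-5p is at 0 after quantile normalization.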

How the data were processed

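Total RNA of MKN1 cells was measured on 2 miRNA arrays, 1 per condition. The authors read the spot signals with GeneSpring GX (version not given in the sources used here), scaling them to global signal intensity, so the deposited values are normalized intensities on a linear scale. Any empty signal entry was read as 0, so a signal given here as listed at 0 could also be an empty entry. Read in this way, both deposited tables held equal signals for 1329 of 1329 probes. The signal table also holds the authors' ratio and p-value columns (their own comparison), which were not used, and a TRUE or FALSE detection mark, to which the authors gave no stated rule. Fold changes were ratios of deposited intensities without a pseudocount, described at a limit of 2-fold. Precision is limited by the number of arrays. Named were all 9 miRNAs, all other probes of their genes, probes with a shared seed, the brightest and dimmest of the list of other neuronal miRNAs and miR-210. Further miRNAs were named after their values were seen. Members and lists were chosen with earlier results of these data known. Alternatives were other scalings, pseudocounts, thresholds and filters, as given at the end. Arms and precursors were paired by name over the whole array. Scaling and trend removal (lowess, span 0.4) were run on simulated data, where only median centring had a limit to pass. Python 3.11.15, numpy 2.4.6, pandas 2.3.3, statsmodels 0.14.6 and matplotlib 3.10.9 were used.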

Additional observations from a re-analysis of the deposited data

How the results depend on the processing

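No paired analysis was possible because each condition had 1 array. Of the 7 neuronal miRNAs with a signal on both arrays, 2 were over 2-fold higher under median centring, 75th percentile, total signal and quantile scaling. In these settings 32, 49, 76 and 26 of the 510 mature probes were over 2-fold higher. After removal of the trend and with pseudocounts of 16 and 50 the neuronal count was also 2, beside 27, 32 and 20 mature probes. At thresholds of 1.5-fold and 3-fold the neuronal count was 2 too. It was 2 as well with the other deposited table and signals of 0 read as 20, which could not change the values of these 7 miRNAs. Only probes with both signals above the median of their array left miR-7, miR-9 and miR-129-5p. Of these, 0 were over 2-fold higher and 0 were higher at all, beside 9 and 110 of the 275 mature probes left. This follows from the filter, since miR-129-3p, miR-218 and miR-132 were below the normoxia median of 309. Counting all probes of the genes was an alternative added after the data were seen. It gave 6 of 17 over 2-fold higher, beside 64 of all 663 probes. With pseudocounts of 16 and 50 this became 4 and 3, beside 45 and 24. Median centring, quantile normalization and trend removal each gave 5, beside 47, 37 and 37. Total signal scaling gave 7, beside 104. With signals of 0 read as 20 it was 7 of 23, beside 99 of 839. The filter on the array medians gave 1 of 5, beside 12 of 328. miR-132 turned to -0.033 with median centring, -0.30 with quantile normalization and -0.26 without the trend, and miR-129-5p was at 0 after quantile normalization; the cause was not tested.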
